A study of Mus musculus with 8 samples.

Results

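Ucp1, Ucp3, Cidea, Dio2, Ppargc1a, Ppargc1b, Prdm16, Kcnk3, Slc6a8 and Ckb were followed in epididymal white fat, 10 of the 18691 genes in the deposited files, taken by gene symbol in all 8 libraries. They are genes of heat-producing fat and of the creatine cycle that are not also abundant in liver. The fat came from C57BL/6J mice at 16 weeks of age, with 4 libraries labelled Mrp4 knockout (Mrp4-/-, replicates 1, 2, 4 and 5) and 4 labelled wild type (WT, replicates 1, 2, 3 and 4). Polyadenylated RNA was sequenced in read pairs. No treatment, diet or housing temperature is given in the labels, which also leave unsaid whether 1 library stands for 1 mouse. The p-values thus cover the spread among these 8 libraries, which may be technical. The sources used here give neither the structure of the altered Mrp4 allele nor the cell types that lack it.

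Brown and beige adipocytes make heat by letting protons leak back across the inner mitochondrial membrane through UCP1, while white adipocytes of the epididymal pad mainly store triglyceride. Noradrenaline acting on beta-adrenergic receptors raises cyclic AMP, which drives lipolysis and the transcription of Ucp1, Dio2 and Ppargc1a. The creatine cycle spends ATP without UCP1: creatine enters through SLC6A8, is phosphorylated by creatine kinase B, and is released again by hydrolysis of phosphocreatine. Mrp4, encoded by Abcc4, is an efflux transporter that carries cyclic AMP out of cells, and the comparison of genotypes asks how fat differs where it is labelled as missing.

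The promoters of Ucp1, Dio2 and Ppargc1a are shown because these 3 genes respond to cyclic AMP, as RefSeq windows of build GRCm38.p6, from 250 bases before to 50 bases after the start of the gene, 5′ to 3′ on the gene's strand. The build is not the mm9 of the expression files, so the coordinates serve for these windows alone. Capitals mark the cyclic AMP response element core, CGTCA or its reverse complement TGACG. The Ucp1 window lies at chr8:83290098-83290397 on the plus strand, that of Dio2 at chr12:90738989-90739288 on the minus strand, and that of Ppargc1a at chr5:51567676-51567975 on the minus strand.
Ucp1: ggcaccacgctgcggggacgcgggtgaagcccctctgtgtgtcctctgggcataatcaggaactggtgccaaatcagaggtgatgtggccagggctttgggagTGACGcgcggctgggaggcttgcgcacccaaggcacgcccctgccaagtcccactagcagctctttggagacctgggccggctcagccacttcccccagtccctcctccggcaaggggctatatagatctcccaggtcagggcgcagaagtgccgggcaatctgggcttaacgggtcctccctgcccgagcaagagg
Dio2: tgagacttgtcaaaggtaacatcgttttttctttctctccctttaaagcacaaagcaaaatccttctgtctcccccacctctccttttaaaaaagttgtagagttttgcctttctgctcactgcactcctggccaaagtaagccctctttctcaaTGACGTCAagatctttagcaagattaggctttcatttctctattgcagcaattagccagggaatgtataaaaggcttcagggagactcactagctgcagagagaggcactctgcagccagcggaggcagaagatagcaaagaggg
Ppargc1a: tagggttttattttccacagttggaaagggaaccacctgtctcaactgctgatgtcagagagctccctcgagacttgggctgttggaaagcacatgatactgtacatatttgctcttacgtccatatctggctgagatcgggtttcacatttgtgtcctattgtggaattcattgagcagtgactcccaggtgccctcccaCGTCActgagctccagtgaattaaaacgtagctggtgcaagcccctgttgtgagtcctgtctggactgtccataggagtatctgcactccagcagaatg
Counted from the start, with the base before it as -1, the core began at -147 in Ucp1 and at -49 in Ppargc1a. Dio2 carried the full palindrome TGACGTCA at -95, which holds the core on both strands. CGTCA in either orientation was present in 20.8% of the 32851 promoter windows searched and TGACGTCA in 1.79%, so the short core is common and the full palindrome is not. Windows of 6 of the 10 genes were searched. Ucp3 had the core at 28, after its start, while those of Prdm16 and Ckb did not hold these letters. CCAAT was found at -98 in Prdm16 and at -46 and -16 in Ckb, and in 37.4% of all windows. The consensus PPAR response element and TCAAGGTCA, an oestrogen-related receptor motif, were in 0 of the 6 windows, against 0.0396% and 0.423% of all windows. These matches describe letters and were not tested for binding.

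Abcc4 (gene 239273), the gene named in the label, was no lower under the knockout label. It had 3.54, 3.68, 3.89 and 3.31 FPKM (fragments per kilobase of transcript, scaled to depth) in the knockout-labelled libraries, against 3.59, 3.33, 3.81 and 3.33 FPKM in WT libraries. The groups overlapped (log2 fold change -0.05 ± 0.08 SE, adjusted p = 0.692; exact two-sided permutation p = 0.571 on log2(FPKM + 1)). Every direction below therefore rests on the label, and counts per gene do not show which exons were read. Depth was even, at 14.1e6 to 14.7e6 expected counts per library. White adipocyte markers were abundant in every library, their sum being 21900 to 28700 FPKM in knockout-labelled and 19900 to 25200 FPKM in WT libraries, and 0 of 12 rose and 3 fell, the count of falls being 0 without WT replicate 4, knockout-labelled replicate 1 or knockout-labelled replicate 2 and 1 without knockout-labelled replicate 4. Markers of other cell types gave the counts that follow. Over all 14257 tested genes 18.3% were called at an adjusted p under 0.05 (10.2% higher, 8.05% lower). That total of 2606 genes ran from 1172 to 3683 with 1 library left out. All 12 liver markers rose (sum 823 to 1530 against 47.6 to 118 FPKM), as did 5 of 10 macrophage markers (905 to 1430 against 724 to 852 FPKM) and 5 of 10 endothelial markers (611 to 656 against 364 to 572 FPKM). The macrophage count was 3 without WT replicate 1, WT replicate 4 or knockout-labelled replicate 4. The endothelial count was 2 without WT replicate 1, WT replicate 4, knockout-labelled replicate 1 or knockout-labelled replicate 4, and 3 without knockout-labelled replicate 2 or 5. Of the mesothelial markers 1 of 9 fell (68.8 to 187 against 184 to 286 FPKM), and 3 without WT replicate 2 and 2 without knockout-labelled replicate 4. Smooth muscle and pericyte markers ran from 301 to 379 FPKM in sum against 215 to 323 FPKM (2 of 10 rose, and 1 without WT replicate 1 or knockout-labelled replicate 2), and progenitor and fibroblast markers from 1130 to 1380 against 1340 to 1550 FPKM (4 of 10 rose, 1 fell). Epididymal markers were too low to test, with a sum of 0.28 to 0.43 FPKM in knockout-labelled and 0.56 to 13.9 FPKM in WT libraries. The highest sum was that of WT replicate 2, where Crisp1 had 13.47 FPKM, against 0 to 0.6 FPKM in the other libraries. The part of these cell types in the results on thermogenic genes was not tested. In whole tissue, fewer cells of a type and less RNA per cell cannot be told apart.

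Of the tested genes of the set, Ppargc1a fell with each library left out in turn, Ppargc1b fell in the full comparison with a call that most left-out libraries ended, and the others did not pass the test. Ppargc1a and Ppargc1b were at 0.493 and 0.486 of a low WT level in the knockout-labelled libraries, while Ucp3, Cidea, Dio2, Prdm16, Kcnk3, Slc6a8 and Ckb did not pass the test and Ucp1 had too few counts to be tested. In counts, 9 of the 10 genes could be tested with edgeR's quasi-likelihood test, and 0 rose, 2 fell and 7 did not pass at an adjusted p of 0.05 over all genes. Over all 14257 tested genes 18.3% passed, 10.2% higher and 8.05% lower. The share of these genes called in either direction is thus near the background. Both calls were falls, and 2 calls are too few to read a direction from. Their median log2 fold change was -0.03, against 0 over all tested genes. The ranges of the groups in FPKM were apart for 1 of the 9, against 23.5% of all tested genes.

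**Figure D1:**
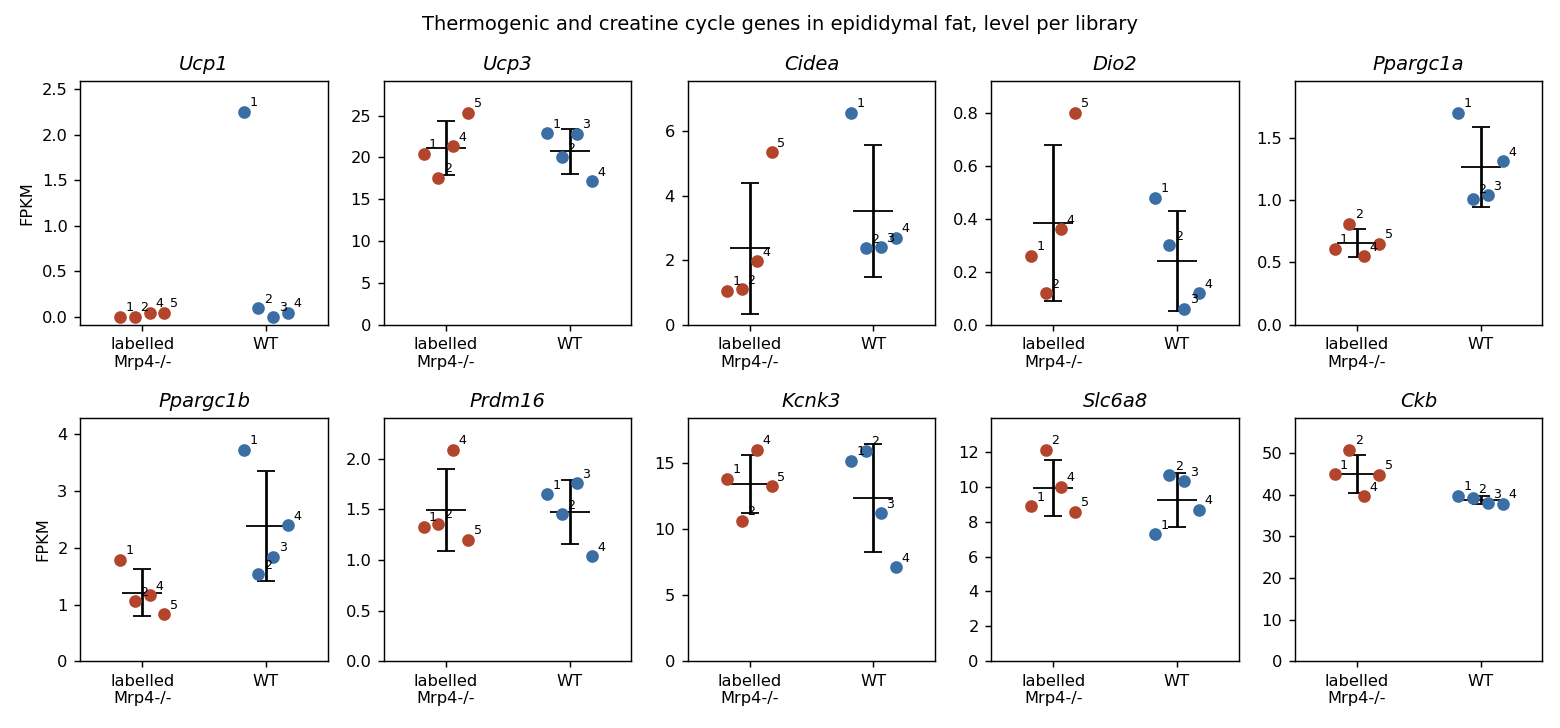
FPKM of each gene in each library, with libraries labelled Mrp4-/- on the left and WT on the right; numbers are replicates, horizontal lines are means and bars are SD (n = 4), left out for Ucp1 because 3 of its libraries are at 0. Ppargc1a is the gene whose groups do not overlap, and WT replicate 1 is the highest WT library for 7 of the 10 genes.

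The level of these genes spanned a wide range, in an order set by mean FPKM over the 8 libraries. Ckb was highest at 41.9 FPKM, above 90.6% of the genes in the files, followed by Ucp3 at 20.9, Kcnk3 at 12.9 and Slc6a8 at 9.56 FPKM. Then came Cidea at 2.94, Ppargc1b at 1.80, Prdm16 at 1.49 and Ppargc1a at 0.960 FPKM, with Dio2 at 0.312 and Ucp1 at 0.308 FPKM last, above 23.4% and 23.2% of genes. The upper steps were clear in every library: Ckb exceeded Ucp3, Ucp3 exceeded Kcnk3, and Slc6a8 exceeded Cidea in 8 of 8. Other neighbours were closer, since Kcnk3 exceeded Slc6a8 in 6 libraries, Ppargc1b exceeded Prdm16 in 5 and Prdm16 exceeded Ppargc1a in 6. Cidea exceeded Ppargc1b, Ppargc1a exceeded Dio2 and Dio2 exceeded Ucp1 in 7 of 8 libraries.

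Ucp1 (gene 22227), the defining uncoupling protein of brown and beige fat, was near absent apart from 1 library. It had 0, 0, 0.04 and 0.04 FPKM in the knockout-labelled libraries, against 2.25, 0.09, 0 and 0.04 FPKM in WT libraries. WT replicate 1 stood alone, with 52 of the 55 counts in the WT group, while the 4 knockout-labelled libraries held 2 counts together and the other 3 WT libraries held 3. A count of 0 at this depth allows a level of up to 0.205 to 0.207 CPM (counts scaled to library depth) (3 counts, counting error only) in the libraries concerned. The difference in mean log2(FPKM + 1) was -0.44 with all libraries and -0.03 without WT replicate 1 (exact two-sided permutation p = 0.343 and 0.686). The smallest p that 4 against 4 libraries allow is 0.0286, and with 3 in 1 group it is 0.0571.

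Ucp3 (gene 22229), a carrier related to UCP1 that is best known from skeletal muscle and brown fat, was far higher than Ucp1 in every library. Its level was 20.42, 17.56, 21.36 and 25.33 FPKM in the knockout-labelled libraries, against 22.86, 20.01, 22.84 and 17.12 FPKM in WT libraries. The groups overlapped almost fully (fold 0.979, 95% interval 0.803 to 1.19, adjusted p = 0.892). Even in WT replicate 1, where Ucp1 was highest, Ucp3 was 10.2 times as high in FPKM. The fast myosin genes Myh1, Myh2 and Myh4, which define skeletal muscle fibres, averaged under 0.1 FPKM, and 9 of the 12 muscle markers averaged under 1 FPKM. The summed muscle list, led by Acta1, was 63.1 to 143 FPKM in knockout-labelled and 44.3 to 105 FPKM in WT libraries. Of the 3 that could be tested 0 rose and 1 fell, Actn3 (-1.45 ± 0.44, adjusted p = 0.0482), named after its value was seen; its call was lost without WT replicate 1, 3 or 4 and without knockout-labelled replicate 1 or 4. Myl1 averaged 26.5 ± 3.69 FPKM in knockout-labelled and 31.4 ± 2.29 FPKM in WT libraries (SD, n = 4 each). The part of muscle transcripts in the Ucp3 level was not tested.

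Of the other carriers that can leak protons, 0 of 6 tested genes rose and 0 fell, with a median log2 fold change of 0.07. Over all tested genes 18.3% were called. The groups were apart in FPKM for 2 of the 6, Ucp2 and Slc25a14, against 23.5% of all tested genes. Slc25a14, at 0.33 ± 0.15 (adjusted p = 0.158), is named after its values were seen. With upper quartile factors, library size alone, the DESeq2 Wald test or limma on FPKM 1 of the 6 rose, and without WT replicate 2 1 rose and 1 fell. Ucp2, a broadly expressed relative that is abundant in immune cells, had 93.66, 88.89, 101.93 and 91.51 FPKM in the knockout-labelled libraries, against 49.5, 76.68, 78.66 and 64.9 FPKM in WT libraries. Every knockout-labelled value lay above every WT value, while the adjusted p was above the threshold (0.42 ± 0.13, adjusted p = 0.0534). Macrophage markers were higher in the same libraries, as given above, and their part was not tested. Slc25a5 and Slc25a4, ADP/ATP carriers of the inner mitochondrial membrane, had log2 fold changes of -0.37 ± 0.15 and -0.16 ± 0.07 (adjusted p = 0.101 and 0.156).

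Ppargc1a (gene 19017) encodes PGC-1alpha, the cold- and cyclic AMP-induced coactivator of mitochondrial biogenesis and of Ucp1. It fell to 0.61, 0.81, 0.55 and 0.65 FPKM in the knockout-labelled libraries, against 1.7, 1.01, 1.04 and 1.31 FPKM in WT libraries. The highest knockout-labelled library, replicate 2, stayed below the lowest WT library, replicate 2, so the groups did not overlap. The mean was 0.655 ± 0.111 FPKM in knockout-labelled libraries and 1.27 ± 0.32 FPKM in WT libraries (SD, n = 4 each). The fold was 0.493 with a 95% interval of 0.361 to 0.674 (log2 fold change -1.02 ± 0.20 SE, adjusted p = 0.0118). In counts this is 52 to 76 per knockout-labelled library and 94 to 159 per WT library. The call held with each of the 8 libraries left out in turn, with log2 fold changes from -1.13 to -0.85. With the 12 liver markers left out before scaling it was -1.02 (adjusted p = 0.012). That step leaves the counts of Ppargc1a as they are, so it is no check on liver transcripts, whose part was not tested.

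Ppargc1b (gene 170826) encodes PGC-1beta, a related coactivator that maintains mitochondrial and oxidative genes but is less tied to cold. Its level was 1.79, 1.06, 1.17 and 0.83 FPKM in the knockout-labelled libraries, against 3.73, 1.54, 1.84 and 2.4 FPKM in WT libraries. The groups overlapped, because knockout-labelled replicate 1 lay above WT replicate 2, and WT replicate 1 was far above the rest. The mean was 1.21 ± 0.41 FPKM in knockout-labelled libraries and 2.38 ± 0.97 FPKM in WT libraries (SD, n = 4 each), a fold of 0.486 with a 95% interval of 0.297 to 0.793. Ppargc1b passed just under the threshold (log2 fold change -1.04 ± 0.31 SE, adjusted p = 0.0481). The call was lost in 6 of 8 cases with 1 library left out, those of WT replicates 1, 3 and 4 and of knockout-labelled replicates 2, 4 and 5, while the log2 fold change stayed between -1.28 and -0.74. It was -0.74 without WT replicate 1 (adjusted p = 0.103).

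**Figure D2:**
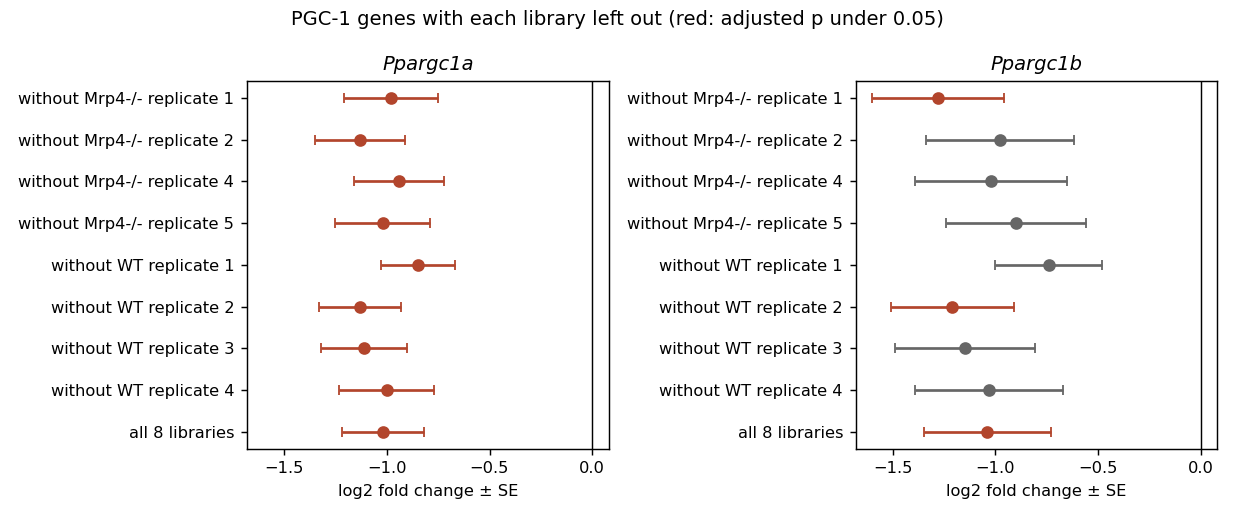
Log2 fold change of Ppargc1a and Ppargc1b (libraries labelled Mrp4-/- over WT, bars are SE) with all 8 libraries and with each library left out, red where the adjusted p was under 0.05. All 8 values of Ppargc1a stay red, between -1.13 and -0.85, and 6 of 8 values of Ppargc1b are grey, between -1.15 and -0.74.

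The ratio of the 2 coactivator genes did not differ detectably between the groups. The log2 ratio of Ppargc1a to Ppargc1b in FPKM was -1.55, -0.39, -1.09 and -0.35 in the knockout-labelled libraries, against -1.13, -0.61, -0.82 and -0.87 in WT libraries. The WT values all lay within the wider range of the knockout-labelled ones, and the difference of means was 0.01 (exact two-sided permutation p = 0.914). That difference runs between -0.15 and 0.25 with 1 library left out, so no unequal change of the pair could be told from the spread.

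Of 18 tested genes that act with PGC-1 or are its known targets, 0 rose, 3 fell and 15 did not pass, with a median of -0.12. Over all tested genes 10.2% were higher and 8.05% lower. Nrip1, the corepressor RIP140 that opposes PGC-1 in white fat, fell to 28.98, 32.99, 30.64 and 29.95 FPKM in the knockout-labelled libraries, against 39.49, 41.77, 45.88 and 53.91 FPKM in WT libraries. The groups were apart and the call held with each library left out (-0.63 ± 0.10, adjusted p = 0.00506). Sirt1, a deacetylase of PGC-1alpha, and Kat2a, the acetyltransferase GCN5, were the other called genes, at -0.31 ± 0.08 and -0.22 ± 0.07 (adjusted p = 0.0345 and 0.0487). Sirt1 lost its call in 7 of 8 cases with 1 library left out, among them WT replicate 1, and Kat2a in 8 of 8. So 1 gene of the list fell rather than 3 in 7 of 8 such cases, and also when libraries were scaled by size alone.

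Prdm16 (gene 70673), the zinc finger regulator that commits precursors to the brown and beige fate, did not pass the test. Its level was 1.33, 1.36, 2.09 and 1.2 FPKM in the knockout-labelled libraries, against 1.65, 1.45, 1.76 and 1.04 FPKM in WT libraries. The extremes came from knockout-labelled replicate 4 and WT replicate 4, with the groups interleaved (fold 0.966, 95% interval 0.703 to 1.33, adjusted p = 0.889). Among its partners and opponents, 1 rose, 3 fell and 9 of 13 did not pass, with a median of -0.15. Over all tested genes 10.2% were higher and 8.05% lower. Mecom, a zinc finger relative of Prdm16, rose by 0.50 ± 0.14 on the log2 scale (adjusted p = 0.0339). Ehmt1, a histone methyltransferase that binds PRDM16, was at -0.26 ± 0.07, and Ctbp1, a corepressor, at -0.20 ± 0.06 (adjusted p = 0.0342 and 0.0363). Hdac3, a histone deacetylase named here after its values were seen, was at -0.25 ± 0.07 (adjusted p = 0.0377). These calls were fragile: each was lost in 6 or 7 of 8 cases with 1 library left out, and 0 rose and 0 fell without WT replicate 3, WT replicate 4, knockout-labelled replicate 2 or knockout-labelled replicate 4. Scaled by library size alone, 2 of the list rose and 0 fell.

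Cidea (gene 12683) encodes a lipid droplet protein that is abundant in brown fat and rises when white fat turns beige. Its level was 1.05, 1.1, 1.96 and 5.35 FPKM in the knockout-labelled libraries, against 6.57, 2.38, 2.41 and 2.7 FPKM in WT libraries. Single libraries set its spread, WT replicate 1 and knockout-labelled replicate 5, which each lay well above the other 3 of their group. With all libraries the fold was 0.646 with a 95% interval of 0.269 to 1.55 (adjusted p = 0.455). The log2 fold change of Cidea was -0.63 with all libraries, -0.13 without WT replicate 1 and -1.42 without knockout-labelled replicate 5 (adjusted p = 0.0756 in that last case).

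Both relatives of Cidea were measured. Cidec, the droplet protein of white adipocytes, ran from 2001.74 to 3390.2 FPKM in knockout-labelled and from 1771.7 to 2462.89 FPKM in WT libraries (log2 fold change 0.25 ± 0.18, adjusted p = 0.367). Cideb, which serves lipid loading of lipoproteins in liver, had 2.43, 5.64, 4.69 and 3 FPKM in the knockout-labelled libraries, against 0.36, 0.37, 0.3 and 0.43 FPKM in WT libraries. The groups of Cideb were far apart (3.34 ± 0.34, adjusted p = 0.000479), as were those of the liver markers, of which Alb, the most abundant, ran from 310 to 553 FPKM in knockout-labelled and from 17.4 to 40.0 FPKM in WT libraries. The part of liver transcripts in the Cideb result was not tested.

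Dio2 (gene 13371) encodes the deiodinase that makes active thyroid hormone inside brown fat. Its level was 0.26, 0.12, 0.36 and 0.8 FPKM in the knockout-labelled libraries, against 0.48, 0.3, 0.06 and 0.12 FPKM in WT libraries, resting on 5 to 65 counts each. The groups interleaved, and the libraries that were high for Cidea, knockout-labelled replicate 5 and WT replicate 1, were high for Dio2 too. Its fold was 1.52 with a wide 95% interval of 0.536 to 4.33 (adjusted p = 0.551), and the log2 fold change of 0.61 became -0.03 without knockout-labelled replicate 5.

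Of 7 tested genes of thyroid hormone handling, 1 rose, 1 fell and 5 did not pass, with a median of -0.17. The share called over all genes was 18.3%. Thrb, a thyroid hormone receptor, fell to 6.12, 5.44, 6.93 and 5.09 FPKM in the knockout-labelled libraries, against 7, 7.88, 8.04 and 8.31 FPKM in WT libraries. Its groups did not overlap and the call held with each library left out (-0.47 ± 0.10, adjusted p = 0.0153). Dio1, the deiodinase of liver and kidney, had 0.8, 1, 1.96 and 0.52 FPKM in the knockout-labelled libraries, against 0.08, 0.04, 0 and 0.04 FPKM in WT libraries (4.44 ± 0.66, adjusted p = 0.00309). It rose in the libraries in which the liver markers rose, and their part was not tested.

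Receptors for noradrenaline stand upstream of these genes. Of 8 tested adrenergic receptors 0 rose, 1 fell and 7 did not pass, with a median of 0.08, while 18.3% of all genes were called. Without WT replicate 2, 1 rose and 1 fell. The called gene was Adrb3, the receptor specific to adipocytes, which had 239.66, 230.43, 257.61 and 200.33 FPKM in the knockout-labelled libraries, against 362.51, 446.08, 456.6 and 396.54 FPKM in WT libraries. The groups of Adrb3 were apart (-0.90 ± 0.11, adjusted p = 0.000876). Adra1a, a receptor of the alpha-1 class, had a log2 fold change of 0.20 ± 0.17 (adjusted p = 0.444).

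Kcnk3 (gene 16527), the acid-sensitive potassium channel TASK1 that is enriched in brown fat, was among the more abundant genes of the set. Its level was 13.78, 10.61, 15.98 and 13.21 FPKM in the knockout-labelled libraries, against 15.14, 15.89, 11.17 and 7.09 FPKM in WT libraries. WT replicate 4 was lowest and the groups overlapped (fold 1.04, 95% interval 0.732 to 1.48, adjusted p = 0.88). Of 5 other tested channels of its family, 0 rose and 0 fell, with a median of 0.10, while 18.3% of all genes were called. Without WT replicate 2, 1 of the 5 rose. The nearest to the threshold were Kcnk2 at 0.48 ± 0.18 and Kcnk5 at -0.43 ± 0.17 (adjusted p = 0.0877 and 0.103).

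**Figure D3:**
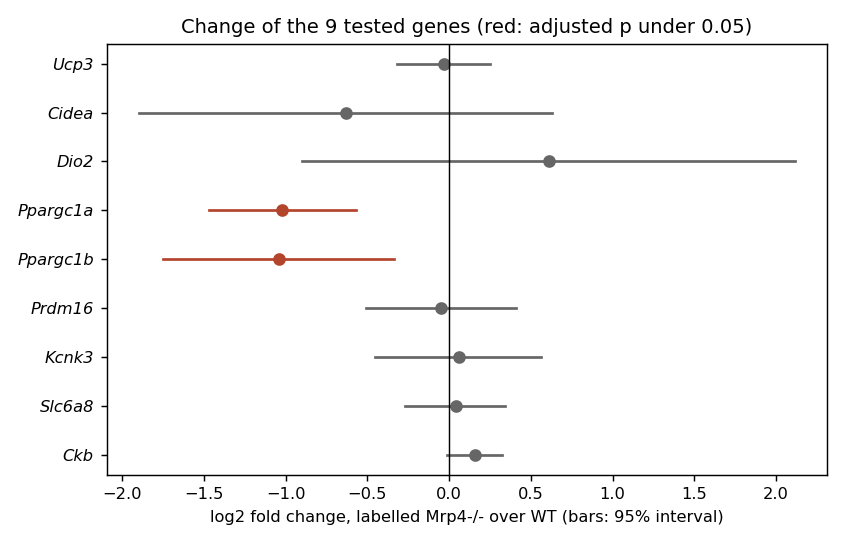
Log2 fold change of the 9 tested genes, libraries labelled Mrp4-/- over WT, with 95% intervals, red where the adjusted p was under 0.05. Ppargc1a and Ppargc1b lie near -1, the intervals of Cidea and Dio2 are the widest, and Ckb has the narrowest interval.

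Neither gene of the creatine cycle passed the test. Slc6a8 (gene 102857), the creatine transporter, had 8.89, 12.12, 10 and 8.57 FPKM in the knockout-labelled libraries, against 7.28, 10.66, 10.31 and 8.67 FPKM in WT libraries. The groups overlapped, with a fold of 1.03 and a 95% interval of 0.83 to 1.27 (adjusted p = 0.876). Ckb (gene 12709), the cytosolic creatine kinase, had 44.9, 50.85, 39.62 and 44.84 FPKM in the knockout-labelled libraries, against 39.8, 39.17, 37.96 and 37.81 FPKM in WT libraries. Knockout-labelled replicate 4 lay just below WT replicate 1, and the other 3 knockout-labelled libraries lay above every WT library. In unscaled counts the groups were apart, at 830 to 1065 in knockout-labelled and 772 to 825 in WT libraries. The coefficient of variation of Ckb was 10.2% in knockout-labelled and 2.48% in WT libraries. Its fold was 1.11 with a 95% interval of 0.991 to 1.25 (adjusted p = 0.17).

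The log2 ratio of Slc6a8 to Ckb in FPKM was -2.34, -2.07, -1.99 and -2.39 in the knockout-labelled libraries, against -2.45, -1.88, -1.88 and -2.12 in WT libraries. The ranges overlapped almost fully, with a difference of means of -0.11 (exact two-sided permutation p = 0.571). Creatine is made by Gatm and Gamt, and phosphocreatine is hydrolysed by the phosphatase Alpl. Of 4 tested genes, Gatm, Gamt, Alpl and the kinase Ckmt1, 0 rose and 0 fell, with a median of 0.20. Over all tested genes 18.3% were called. Ckmt1, named after its values were seen, averaged 0.415 FPKM in knockout-labelled and 0.538 FPKM in WT libraries (-0.44 ± 0.52, adjusted p = 0.581). Gamt was the most abundant, at 62.33, 54.75, 51.52 and 54.96 FPKM in the knockout-labelled libraries, against 49.72, 57.73, 52.34 and 40.37 FPKM in WT libraries (0.10 ± 0.10, adjusted p = 0.495). Gatm and Alpl had log2 fold changes of 0.29 ± 0.18 and 0.35 ± 0.20 (adjusted p = 0.274 and 0.238). The muscle kinase Ckm, chosen after its values were seen, had 0.05, 0, 0.1 and 0.05 FPKM in the knockout-labelled libraries, against 1.16, 0.05, 0 and 0.05 FPKM in WT libraries. As for Ucp1, WT replicate 1 alone stood out. Ckmt2 was looked for by symbol but was not listed in any library, so it was not analysed.

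The calcium cycle is another route of heat without UCP1. Of its 5 tested genes 0 were higher and 0 lower, with a median of 0.38, while 18.3% of all tested genes were called. With the DESeq2 Wald test 1 was higher and 1 lower. Without WT replicate 2 or knockout-labelled replicate 1, 1 was higher. Of these genes Ryr1, Ryr2 and Pln averaged under 1 FPKM in both groups. Atp2a2, the calcium pump of the endoplasmic reticulum that this cycle uses in beige fat, was at -0.22 ± 0.08 on the log2 scale (adjusted p = 0.089), and Atp2a3 at 0.38 ± 0.22 (adjusted p = 0.258).

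Other genes used to mark brown or beige fat moved in both directions. Of 18 tested, 3 rose, 4 fell and 11 did not pass, with a median of 0.02. These counts include Eva1a among the genes that rose, although it is not such a marker, as given below. Over all tested genes 10.2% were higher and 8.05% lower. The count was 2 higher and 2 lower without WT replicate 4, and 3 higher and 2 lower without knockout-labelled replicate 2, 4 or 5. Pm20d1, a secreted enzyme that makes N-acyl amino acids, rose to 3.82, 3.32, 3.29 and 4.49 FPKM in the knockout-labelled libraries, against 2.22, 2.44, 2.39 and 1.88 FPKM in WT libraries (0.68 ± 0.13, adjusted p = 0.012). Hoxc9, a homeobox gene of fat depot identity, fell to 3.63, 3.31, 3.18 and 3.65 FPKM in the knockout-labelled libraries, against 5.2, 5.21, 4.52 and 5.36 FPKM in WT libraries (-0.62 ± 0.11, adjusted p = 0.00875). The groups of both genes were apart. Eva1a rose to 2, 2.5, 2.14 and 1.77 FPKM in the knockout-labelled libraries, against 0.8, 0.93, 0.52 and 0.65 FPKM in WT libraries (1.47 ± 0.22, adjusted p = 0.00341). It encodes a membrane protein linked to autophagy and is not Mpzl2, the gene whose older name Eva1 stands in lists of brown fat markers.

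The remaining called genes of that list were chosen for naming after their values were seen. Slc36a2, an amino acid transporter on the surface of brown and beige adipocytes, had 68.02, 47.72, 74.34 and 62.16 FPKM in the knockout-labelled libraries, against 154.52, 73.21, 97.34 and 116.63 FPKM in WT libraries (-0.88 ± 0.22, adjusted p = 0.0294). Its groups overlapped at knockout-labelled replicate 4 and WT replicate 2, and it lost its call in 7 of 8 cases with 1 library left out, WT replicate 1 among them. Mtus1 and Letmd1, which encode mitochondrial proteins, were at -0.32 ± 0.07 and -0.30 ± 0.07 (adjusted p = 0.016 and 0.024), and Letmd1 lost its call in 5 of 8 such cases. S100b, a calcium-binding protein of Schwann cells and brown adipocytes, had 2.88, 1.93, 2.05 and 6.85 FPKM in the knockout-labelled libraries, against 0.72, 1.11, 0.55 and 0.39 FPKM in WT libraries (2.24 ± 0.49, adjusted p = 0.0177). Its groups were apart, and the call was lost without WT replicate 4. Of 7 tested Schwann cell markers, S100b included, 1 rose and 2 fell (0 and 0 without WT replicate 4, 1 and 0 without knockout-labelled replicate 5, 1 and 1 without WT replicate 1 or 3 or knockout-labelled replicate 1, 2 or 4), and their sum was 16.1 to 20.1 FPKM in knockout-labelled and 15.8 to 21.3 FPKM in WT libraries. Cox8b, a brown fat subunit of cytochrome oxidase that did not pass and was also chosen after its values were seen, had 21.3, 13.37, 30.1 and 39.44 FPKM in the knockout-labelled libraries, against 42.78, 13.71, 18.22 and 24.25 FPKM in WT libraries (0.03 ± 0.40, adjusted p = 0.968). WT replicate 1 and knockout-labelled replicate 5 were the highest libraries for Cox8b, as they were for Cidea, while the order of the other 6 differed.

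**Figure D4:**
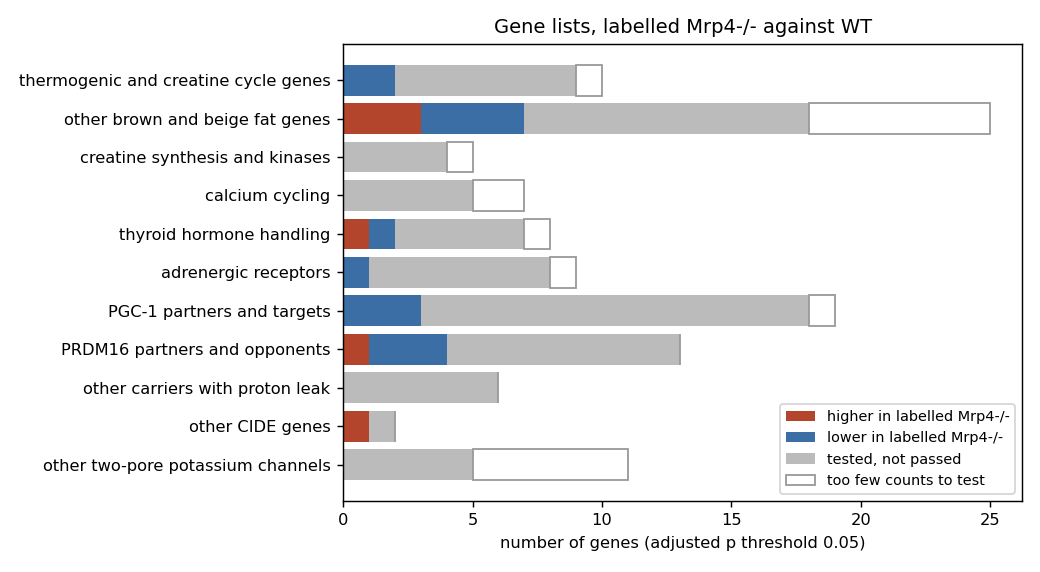
Number of genes of each list that were higher or lower in libraries labelled Mrp4-/- than in WT at an adjusted p of 0.05, that did not pass, or that had too few counts. The thermogenic and creatine cycle genes have 0 higher and 2 lower of 9 tested. The other brown and beige fat genes have 3 higher and 4 lower of 18, with Eva1a included among those higher.

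The order of libraries is given as a description. WT replicate 1 was the highest WT library in FPKM for Ucp1, Ucp3, Cidea, Dio2, Ppargc1a, Ppargc1b and Ckb, 7 of the 10. Knockout-labelled replicate 5 was the highest of its group for Ucp3, Cidea and Dio2. For Ucp3, WT replicates 1 and 3 were nearly equal (22.86 and 22.84 FPKM, from 798 and 800 counts). Ckb ran only from 37.81 to 39.8 FPKM in WT libraries. How often these libraries were highest over all genes was not computed. As a description over the 8 libraries, with no test, the genes whose log2 CPM followed each one most closely were sought among 11845 genes. Ppargc1a was nearest to Bckdk and Cox10 (Pearson r of 0.987 and 0.986), and 522 genes followed it with an r above 0.9. Ppargc1b was nearest to Pcdhb22 and Slc11a2 (0.979 and 0.976), with 210 such genes. These high values share the difference between the groups, so the numbers of companions depend in part on the test itself. They are no separate result on the genes. The genes that did not pass the test had far fewer companions above 0.9: 22 for Cidea, among them Slc52a2 (0.944), 18 for Slc6a8, led by Fzd5 and Clic3 (0.956 each), 11 for Kcnk3, led by Rhoq (0.982), 10 for Dio2, led by Kpna6 (0.979), 8 for Ucp3, led by Enthd2 (0.954), and 7 each for Prdm16, led by Yipf3 (0.959), and Ckb, led by Lhpp (0.941).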

How the data were processed

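RNA of 8 libraries was sequenced on the BGISEQ-500 platform, per the labels' protocols. Per the submitters' processing notes the build was mm9 and Bowtie2 was used. Neither the quantifier nor the use of strand is stated there, so overlapping or antisense genes and near-identical copies can share reads. The authors gave an expected count and an FPKM value for each gene listed in a library, per the file headers, and a gene not listed was taken as 0. The deposited expected counts, 92.0% to 92.6% of them whole, were rounded. edgeR 4.0.16 in R 4.3.3 then kept 14257 of 18691 genes (filterByExpr) and tested genotype alone with the quasi-likelihood test (robust=TRUE, TMM factors, two-sided). P-values were adjusted by Benjamini-Hochberg over all tested genes, with a threshold of 0.05. The SE is the log2 fold change divided by the square root of F. Ucp1, removed by the filter, Abcc4 and the ratios were compared by exact permutation tests in scipy 1.17.1, with a pseudocount of 1 on FPKM for levels.

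The members and lists were chosen with earlier results of these data known, and the lists are described by counts alone. All 10 members, Abcc4 and in each list up to 3 genes of lowest p that averaged 1 FPKM or more in some group were named, with the 2 genes of highest Pearson r per member; not all are printed, and exceptions are marked. On simulated data of 14154 genes for the same comparison, with 200 changed, edgeR recovered 78% of log2 changes of 1 and 94% of those of 2, and 4.44% of calls were false. Alternatives were other scalings, filters, tools (DESeq2 1.42.0, limma 3.58.1), the replicate block and each library left out. Reads carried no molecular identifiers.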

Additional observations from a re-analysis of the deposited data

Results flagged for a closer look

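In the WT group, Ucp1 in replicate 1 lay far above the other 3 libraries, the gap being 0.96 of the range of the group in FPKM. Cidea in WT replicate 1 was likewise apart, with a gap of 0.924 of the range. Among the knockout-labelled libraries, Gatm was low in replicate 4, with a gap of 0.915 of the range. Slc25a5 was high in knockout-labelled replicate 5, with a gap of 0.836. Of the 82 groups looked at, 4 passed Dixon's critical value for 4 libraries, where chance flags about 1 in 20.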

How the results depend on the processing

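Over 21 alternatives for each of the 9 tested genes, 152 of 189 log2 fold changes kept direction and side of the threshold, 15 were no longer past it, 0 newly passed and 22 changed sign. The number of called genes among them was 2, and 1 (Ppargc1a) with upper quartile factors, library size alone, no filter, limma-voom or limma on log2(FPKM + 1) or log2(FPKM + 0.1), and 1 to 2 with 1 library left out. Over all genes 2606 were called, 4178 at an adjusted p under 0.1 and 1172 to 3683 with 1 library left out. The share higher was 55.9%, against 74.1% with library size alone and 74.0% and 74.2% with limma on FPKM. The labels do not say whether equal replicate numbers pair libraries. Correlations of deviations from the group means were 0.01, -0.07 and -0.13 for numbers 1, 2 and 4. Across unequal numbers they ran from -0.16 to 0.21. With 4 libraries per group, this check cannot decide on pairing by these numbers. With the replicate block over these numbers 158 genes and 0 of the set were called (Ppargc1a adjusted p = 0.0901), and 648 and 1 in the same 6 libraries with no block, an alternative chosen after seeing the data. Sign changes were confined to values that were not called. Ucp3 was 0.04 with library size alone, 0.03 with both limma fits on FPKM, 0.02 without WT replicate 1 or 3 and 0.06 without knockout-labelled replicate 2. Prdm16 was 0.02 with library size alone, 0.01 with both limma fits on FPKM and without WT replicate 1 or knockout-labelled replicate 1, 0.04 without WT replicate 3 or knockout-labelled replicate 5, 0.12 with the block, 0.13 in those 6 libraries without it, and -0.25 at its lowest with 1 library left out. Dio2 was -0.33 with the block, -0.36 in those 6 libraries without it and -0.03 without knockout-labelled replicate 5, and ran up to 1.20 without WT replicate 1. Slc6a8 was -0.06 without WT replicate 1 and -0.07 without knockout-labelled replicate 2, and Kcnk3 -0.13 without WT replicate 4 and -0.03 without knockout-labelled replicate 4, and up to 0.19 with any library left out. The Ppargc1a to Ppargc1b ratio was -0.08 without WT replicate 1, -0.14 without knockout-labelled replicate 2 and -0.15 without knockout-labelled replicate 5, within -0.15 to 0.25 when any library was left out. The Abcc4 difference of 0.03 was -0.06 on log2 CPM and -0.00102 to 0.06 with 1 library left out. The cause of these changes was not tested. Depth limits Ucp1 and Dio2 most, with 57 and 209 counts over all libraries. The ratio of Ucp3 to Ucp1 was not tested because Ucp1 is at 0 in 3 libraries.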
